A study of Rattus norvegicus with 30 samples.

Results

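Primary hepatocytes of male Sprague Dawley rats were exposed to 100 µM beta-naphthoflavone (BNF) for 24 h and compared with hepatocytes given vehicle for 24 h. BNF is a synthetic flavone that binds the aryl hydrocarbon receptor (AhR). The comparison rests on 10 of the 30 Affymetrix rat expression arrays of the study, 5 per group, chosen by the dose and time in their labels, and covers all 14217 genes that a probe set with 1 gene symbol represented. The vehicle group received dimethyl sulfoxide (DMSO), labelled 1%, and 5 more arrays at 24 h received 1 µM BNF. The same 3 treatments at 48 h made up the other 15 arrays. Frozen hepatocytes had been bought, thawed, plated on collagen, overlaid with Matrigel and dosed on day 3 of culture, and each array was a separate well. The labels do not tie wells to animals or to thawed lots, and p-values here cover only variation among wells, which may share a donor. Cells in such culture lose liver functions with time, which limits them as a model of liver, and vehicle wells of the same age are the control for this.

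AhR is a ligand-activated transcription factor held in the cytosol until a ligand binds. It then pairs with ARNT and binds DNA at short elements with the core GCGTG, switching on Cyp1a1, Cyp1a2, Cyp1b1 and a small battery of other enzymes, together with the repressors Ahrr and Tiparp that limit the response. NRF2, encoded by Nfe2l2, acts at antioxidant response elements, whose core is TGACNNNGC, and raises enzymes of glutathione synthesis and quinone reduction, so that Nqo1 answers to both factors. In liver, AhR ligands are best known for inducing drug-metabolising enzymes.

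Promoters of AhR battery members and of some NRF2 targets are shown because each of these genes was called higher at 100 µM and 24 h. The elements named above were searched for in them. At 1 µM and at 48 h the changes of these genes differed, as described below. Whether the elements had a part in the rises was not tested. Each sequence runs 5′ to 3′ on the gene's strand, from 250 bases before to 50 bases after the annotated start, as given by RefSeq for assembly GRCr8. Capitals mark every match to GCGTG or TGACNNNGC on either strand, the reverse of GCGTG reading CACGC. Cyp1a1 and Aldh3a1, which also rose, had no entry in the RefSeq promoter set used, so no sequence is given for them.
Cyp1b1: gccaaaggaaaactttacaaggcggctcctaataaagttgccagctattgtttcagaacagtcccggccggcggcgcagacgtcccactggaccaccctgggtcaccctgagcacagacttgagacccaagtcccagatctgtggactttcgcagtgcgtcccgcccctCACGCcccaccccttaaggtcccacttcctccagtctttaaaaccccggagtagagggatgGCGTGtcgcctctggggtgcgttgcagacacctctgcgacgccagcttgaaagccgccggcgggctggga
Tiparp: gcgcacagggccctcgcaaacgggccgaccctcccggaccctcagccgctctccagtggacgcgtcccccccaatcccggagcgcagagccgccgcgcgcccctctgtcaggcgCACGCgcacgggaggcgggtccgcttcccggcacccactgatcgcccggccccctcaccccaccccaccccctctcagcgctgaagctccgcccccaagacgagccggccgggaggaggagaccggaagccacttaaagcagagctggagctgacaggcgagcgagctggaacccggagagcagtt
Nqo1: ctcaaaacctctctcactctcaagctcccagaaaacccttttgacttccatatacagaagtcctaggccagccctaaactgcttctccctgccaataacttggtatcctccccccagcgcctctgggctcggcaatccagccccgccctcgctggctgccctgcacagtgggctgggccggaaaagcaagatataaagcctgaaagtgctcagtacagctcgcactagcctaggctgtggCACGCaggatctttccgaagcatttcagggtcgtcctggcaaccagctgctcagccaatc
Cyp1a2: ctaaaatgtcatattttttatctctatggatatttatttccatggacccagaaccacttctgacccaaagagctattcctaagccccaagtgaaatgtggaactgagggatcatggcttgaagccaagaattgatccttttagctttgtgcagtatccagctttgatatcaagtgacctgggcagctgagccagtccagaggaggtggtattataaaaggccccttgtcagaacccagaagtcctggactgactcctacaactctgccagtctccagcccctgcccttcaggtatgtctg
Slc7a11: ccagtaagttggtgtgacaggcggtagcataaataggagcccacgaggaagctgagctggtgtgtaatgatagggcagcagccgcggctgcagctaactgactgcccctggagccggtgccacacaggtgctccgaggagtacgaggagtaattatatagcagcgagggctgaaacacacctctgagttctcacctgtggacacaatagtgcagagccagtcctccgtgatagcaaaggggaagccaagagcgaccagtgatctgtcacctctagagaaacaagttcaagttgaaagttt
Akr1b8: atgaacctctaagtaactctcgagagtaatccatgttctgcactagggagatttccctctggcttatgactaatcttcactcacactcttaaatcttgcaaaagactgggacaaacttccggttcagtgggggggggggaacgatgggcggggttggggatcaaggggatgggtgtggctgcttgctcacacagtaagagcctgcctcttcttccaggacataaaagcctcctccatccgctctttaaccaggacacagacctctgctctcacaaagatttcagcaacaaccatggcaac
Nfe2l2: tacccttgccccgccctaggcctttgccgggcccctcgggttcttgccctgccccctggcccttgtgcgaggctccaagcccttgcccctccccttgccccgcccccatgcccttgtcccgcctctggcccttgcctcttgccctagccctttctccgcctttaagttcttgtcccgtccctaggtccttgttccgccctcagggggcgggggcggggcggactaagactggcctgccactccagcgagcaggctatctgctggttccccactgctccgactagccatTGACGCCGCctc
Gclm: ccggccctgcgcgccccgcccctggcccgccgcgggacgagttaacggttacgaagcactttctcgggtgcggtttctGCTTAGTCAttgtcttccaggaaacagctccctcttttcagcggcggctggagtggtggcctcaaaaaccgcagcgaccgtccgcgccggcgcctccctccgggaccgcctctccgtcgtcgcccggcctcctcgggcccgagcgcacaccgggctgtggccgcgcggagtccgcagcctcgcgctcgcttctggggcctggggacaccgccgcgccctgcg

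These windows lie on GRCr8 at chr6:21094315-21094614 on the plus strand for Cyp1b1, chr2:152063519-152063818 on the plus strand for Tiparp, chr19:52220218-52220517 on the minus strand for Nqo1 and chr8:66978100-66978399 on the minus strand for Cyp1a2. The NRF2 target windows are chr2:136668215-136668514 on the minus strand for Slc7a11, chr4:63964171-63964470 on the plus strand for Akr1b8, chr3:81028950-81029249 on the minus strand for Nfe2l2 and chr2:213031885-213032184 on the plus strand for Gclm. GCGTG occurred in the windows of Cyp1b1 (2 matches, beginning 81 and 20 bases before the start), Tiparp (1 match, 136 bases before) and Nqo1 (1 match, 10 bases before), and in none of the other 5. TGACNNNGC occurred once in Nfe2l2, beginning 38 bases after the start, and once in Gclm, 172 bases before it. Over the 11733 promoters of genes tested here, 45.8% held GCGTG and 14.4% held TGACNNNGC. Among promoters of genes that rose the shares were 54.1% of 1280 and 16.7%, and among those of genes that fell 46.9% of 1241 and 16.5%. Of the 15 highest genes described below 12 had an entry, and GCGTG was in 3 of the 12, while it was in 2 of 12 for the 15 lowest. A match is a description of the letters in this window alone.

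At an adjusted p of 0.05 (limma with Benjamini-Hochberg adjustment over all genes, used for the calls below unless an alternative or another probe set is named), 3000 genes, 21.1% of those tested, differed between 100 µM BNF and vehicle at 24 h. Of all genes, 10.7% (1523 genes) were called higher and 10.4% (1477) lower. With each array centred on the median of all its probe sets, an alternative added after the data were seen, 2135 genes were called, 648 higher and 1487 lower, so the balance of the directions depends on the scaling. Most changes were small, the median fold being 1.24 among genes called higher and 1.36 among those called lower. Larger changes were more often falls: 101 genes rose and 182 fell at least 2-fold (a log2 fold change of 1), and 18 rose and 28 fell by a log2 fold change of 2 or more. The 2 groups did not overlap for 2106 of the 14217 genes. The median log2 fold change over all genes was 0.04. Signals are linear and differ in brightness between probe sets, so levels are compared between groups for 1 gene and not between genes. RNA was taken from whole wells, so fewer cells of a type and less RNA per cell cannot be told apart.

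**Figure D1:**
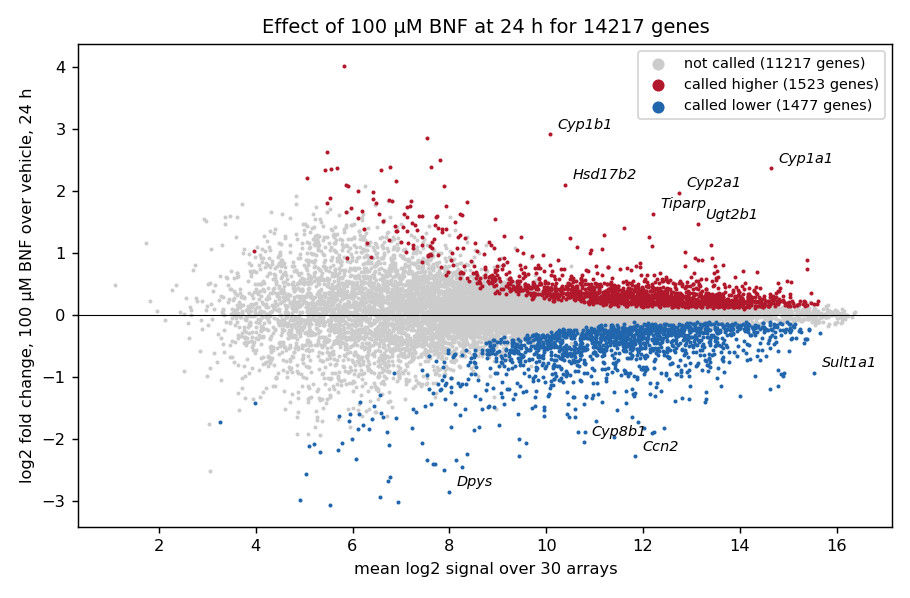
Log2 fold change of 100 µM BNF over vehicle at 24 h (vertical axis) against the mean log2 signal over 30 arrays (horizontal axis), 1 point per gene for 14217 genes, with 1523 called higher in red and 1477 called lower in blue. Calls are frequent among bright genes and the largest named changes run from Cyp1b1 at 2.91 to Dpys at -2.85.

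Quality measures of the arrays overlapped between the groups. The median signal ranged from 361.3 to 399.3 on vehicle arrays and from 364.7 to 427 at 100 µM, and the 3′ minus 5′ log2 difference of the Gapdh control from 0.09 to 0.21 and from 0.09 to 0.14. The mean absolute log2 difference between arrays of the same group had a median of 0.419 and reached 0.454, below the smallest value between the groups, 0.46. Signal limits what could be called: the median standard error (SE) of the log2 fold change was 0.34 for genes below the median signal and 0.08 for those above it, and 6.8% and 35.4% of them were called. Shares for gene lists below are set beside 21.1% of all genes, while a list of bright genes compares with 35.4%. Shares between 27.8% and 37.5% are near or below 35.4% and are not read as a result about those lists. The median gene varied within a group by an SD of 0.21 log2 units in vehicle and 0.20 at 100 µM.

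Members of the AhR battery rose in 6 of 8 measured cases (75.0% called beside 21.1% of all genes), with a median log2 fold change of 1.41. Cyp1b1, a P450 that oxidises aromatic hydrocarbons and steroids, had signals of 513, 690, 352, 609 and 542 on the vehicle arrays and 4081, 4254, 4397, 3736 and 3411 at 100 µM. Every treated array was several times above the highest vehicle array, a 7.50-fold rise (log2 fold change 2.91, SE 0.17, adjusted p = 5.46e-14). Cyp1a1, the best known AhR target, gave 11751, 15657, 7573, 13897 and 10283 in vehicle and 51978, 74156, 53819, 55858 and 61105 at 100 µM, a 5.13-fold rise (log2 fold change 2.36, SE 0.20, adjusted p = 2.47e-10). Its groups did not overlap, and the vehicle arrays spread over a wider relative range than the treated ones. Tiparp, an ADP-ribosyltransferase that represses AhR, read 3999, 3877, 3317, 3941 and 4338 in vehicle and 11841, 12574, 12590, 11248 and 11685 at 100 µM. The groups were far apart and each was tight, a 3.09-fold rise (adjusted p = 5.02e-16), and a dimmer Tiparp probe set rose 5.04-fold (adjusted p = 7.01e-13).

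Cyp1a2, which metabolises caffeine and arylamines, rose from 12700, 12748, 9837, 11301 and 13066 to 27182, 28055, 28790, 21772 and 24615, a 2.19-fold difference (adjusted p = 6.25e-09). Nqo1, the quinone reductase shared with NRF2, rose from 29388, 31136, 33163, 31895 and 28814 to 51034, 66147, 54428, 53329 and 59587, or 1.84-fold (adjusted p = 2.44e-11). The lowest treated array was above the highest vehicle array for both. Aldh3a1, an aldehyde dehydrogenase, was dim, with 90.3, 94.1, 32.9, 133 and 218 in vehicle and 346, 657, 674, 610 and 336 at 100 µM. Its groups did not overlap, and the 5.21-fold rise had a wide error (log2 fold change 2.38, SE 0.37, adjusted p = 1.15e-05). The members that did not pass were Ahrr, the AhR repressor, with 12.3, 304, 29.5, 64 and 26.1 in vehicle and 97.1, 79.8, 176, 148 and 58.8 at 100 µM (log2 fold change 1.20, SE 0.74, adjusted p = 0.291), and the P450 Cyp2s1 (log2 fold change 0.09, SE 0.17, adjusted p = 0.786). Ahrr was dim, and vehicle replicate 2 stood above every treated array, so the direction for this gene could not be read at this signal.

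**Figure D2:**
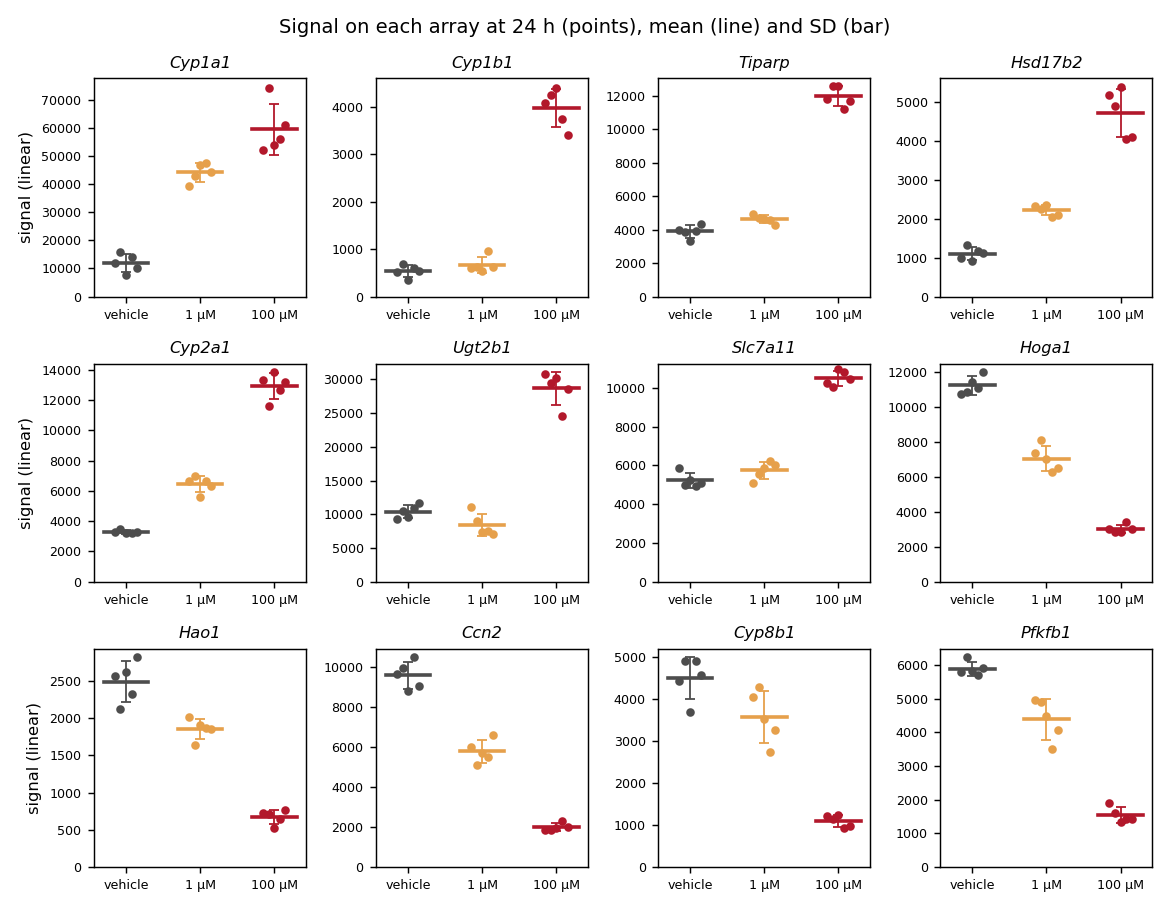
Linear signal (vertical axis) of 12 genes on each of the 15 arrays at 24 h, by treatment: vehicle, 1 µM and 100 µM BNF, with the mean of 5 arrays as a line and the SD as a bar. Cyp1a1 and Cyp2a1 have risen at 1 µM, while Cyp1b1, Tiparp, Ugt2b1 and Slc7a11 stand apart at 100 µM. The means of Hoga1, Hao1, Ccn2, Cyp8b1 and Pfkfb1 step down with dose, and the 1 µM arrays of Cyp8b1 overlap those of vehicle.

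The 15 highest genes, taken from calls with 2 separate groups of arrays and a brighter group above the median gene, held enzymes, secreted signals and 1 transcription factor beside 4 AhR battery members. Hsd17b2, which oxidises estradiol and testosterone to less active ketones, had 978, 1335, 912, 1161 and 1105 in vehicle and 5164, 4891, 5373, 4051 and 4088 at 100 µM, a 4.30-fold rise (adjusted p = 7.00e-13). Cyp2a1, a testosterone 7α-hydroxylase, had 3273, 3466, 3190, 3227 and 3281 in vehicle and 13307, 11636, 13873, 12657 and 13197 at 100 µM. Its vehicle arrays were nearly equal and the treated group lay 3.93-fold higher (log2 fold change 1.97, SE 0.06, adjusted p = 2.77e-20). Ugt2b1, which joins glucuronic acid to drugs and steroids, had 9264, 10516, 9586, 10995 and 11660 in vehicle and 30772, 29422, 30176, 24623 and 28529 at 100 µM (2.76-fold, adjusted p = 2.44e-11). Aspg, an asparaginase, had 382, 368, 226, 172 and 98.2 and 1058, 1227, 1170, 1358 and 1474, and its 5.63-fold rise carries a large error beside its low and scattered vehicle signals (log2 fold change 2.49, SE 0.50, adjusted p = 3.08e-04).

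Gdf15, a stress-induced cytokine that curbs appetite, had 1970, 1496, 2051, 954 and 1620 in vehicle and 4211, 3169, 4556, 4535 and 4305 at 100 µM (2.63-fold, adjusted p = 5.37e-08). Treated replicate 2 was the lowest of its group. Cxcl1, a neutrophil chemokine, had 2745, 3027, 3786, 3621 and 3607 and 7775, 6553, 7671, 6839 and 7230 (2.16-fold, adjusted p = 1.65e-08). Fosl1, a subunit of the AP-1 transcription factor, rose 2.45-fold from 1207 ± 115 to 2955 ± 323 (mean signal ± SD, n = 5). Ceacam1, an adhesion protein that takes part in insulin clearance, rose 2.38-fold from 3356 ± 157 to 7977 ± 331, with the smallest SE of the 15 (0.05 log2 units). Pafah1b3, a catalytic subunit of a platelet-activating factor hydrolase, rose 2.36-fold, and Klrb1a, a receptor known from natural killer cells, 2.91-fold from 368 ± 55 to 1065 ± 103. Beside the Klrb1a rise, the lymphocyte markers were called in 0 of 10 and were all below the median gene in signal. Kif22, a kinesin of the mitotic spindle, rose 2.13-fold with a weaker call (log2 fold change 1.09, SE 0.31, adjusted p = 0.0101).

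Among the 15 lowest genes, 3 encode enzymes of glyoxylate and hydroxyacid metabolism in peroxisomes and mitochondria, 3 act in histidine or pyrimidine breakdown and the others are spread over metabolism and matrix. Hoga1, the mitochondrial aldolase that ends hydroxyproline breakdown and yields glyoxylate, had 10768, 10847, 11468, 11127 and 12042 in vehicle and 3027, 2864, 2866, 3420 and 3028 at 100 µM. Each group was tight and the fall was 3.70-fold (log2 fold change -1.89, SE 0.09, adjusted p = 9.45e-16). Hao1, the peroxisomal glycolate oxidase, went from 2574, 2128, 2625, 2321 and 2822 to 718, 716, 523, 648 and 771 (3.71-fold lower, adjusted p = 5.83e-14). Hao2, a related peroxisomal hydroxyacid oxidase, went from 1365, 1582, 1498, 1552 and 1649 to 335, 480, 400, 338 and 374 (4.00-fold lower, adjusted p = 1.51e-12). Groups that do not overlap were a condition for entering the 15 lowest, as for the 15 highest, so their separation is not a further result.

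Dpys, which opens the pyrimidine ring, had 767, 1007, 939, 911 and 1047 in vehicle and 347, 39.9, 165, 72 and 218 at 100 µM. All treated arrays lay below the median gene's signal of 863 and were scattered, and the 7.20-fold fall has a wide error (log2 fold change -2.85, SE 0.56, adjusted p = 2.53e-04). Uroc1, a urocanate hydratase of histidine breakdown, had 1501, 1843, 1120, 1677 and 1472 and 635, 251, 536, 142 and 234 (4.85-fold lower, adjusted p = 4.60e-07). Ftcd, a folate-linked enzyme of histidine breakdown, had 12020, 15147, 12637, 15782 and 14788 and 4660, 4081, 3878, 2907 and 3324 (3.76-fold lower, adjusted p = 8.83e-07). Ccn2, a matricellular protein induced by TGF-beta and YAP, fell from 9660, 9970, 8807, 10483 and 9049 to 1824, 1827, 1956, 2314 and 1995, a 4.85-fold difference with the smallest adjusted p of the 15 (1.96e-16).

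Pfkfb1, the liver enzyme that sets fructose 2,6-bisphosphate, fell 3.88-fold from 5902 ± 208 to 1535 ± 232 (mean signal ± SD, n = 5). Cyp8b1, the sterol 12α-hydroxylase of cholic acid synthesis, fell 4.10-fold from 4507 ± 498 to 1101 ± 139. Cyp4f4, a P450 that hydroxylates fatty acids and leukotrienes, fell 3.71-fold from 3141 ± 314 to 852 ± 134. The remaining 5 have less settled liver roles: Nxpe4 fell 3.52-fold, Synrg, an adaptor of vesicle traffic, 3.53-fold, the ankyrin repeat gene Asb5 3.43-fold, the ferlin Fer1l5 4.72-fold and LOC100912629 4.17-fold. Another, dimmer probe set of Synrg had a log2 fold change of 0.19 (adjusted p = 0.677).

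**Figure D3:**
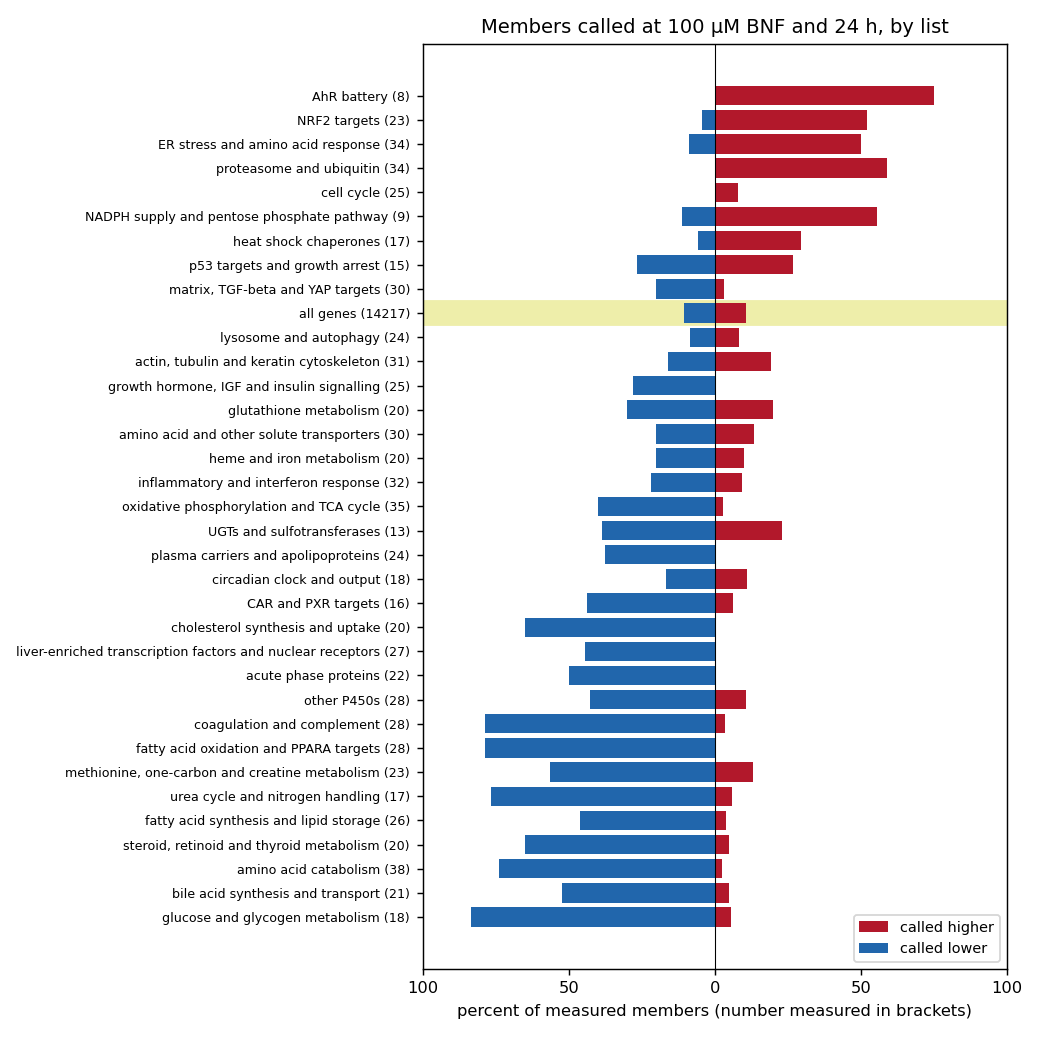
Percent of the measured members of 34 gene lists called higher (red, right) or lower (blue, left) at 100 µM BNF and 24 h, ordered by median log2 fold change, with the number measured in brackets and all 14217 genes shaded. The AhR battery, NRF2 targets, proteasome and ER stress lists lie on the side of rises, and glucose metabolism, bile acid and amino acid catabolism lists at the other end.

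Counts of list members stand beside 10.7% of all genes called higher and 10.4% called lower. Pathway lists printed without a share had from 42.9% (oxidative phosphorylation and TCA cycle) to 88.9% (glucose and glycogen) of members called. All genes gave 21.1% and genes above the median signal 35.4%. NRF2 targets rose in 12 of 23 and fell in 1 (median log2 fold change 0.20, beside 0.04 over all genes). Slc7a11, the cystine carrier that feeds glutathione synthesis, had 5888, 4973, 5243, 4964 and 5097 in vehicle and 10238, 10040, 10956, 10830 and 10483 at 100 µM (2.01-fold, adjusted p = 1.08e-12). Akr1b8, an aldo-keto reductase, rose 1.76-fold from 9824 ± 1109 to 17173 ± 897, Nfe2l2, the gene of NRF2 itself, 1.36-fold from 16748 ± 840 to 22715 ± 463, and Gclm, the modifier subunit of the enzyme that starts glutathione synthesis, 1.47-fold from 27173 ± 2719 to 39791 ± 2745. These 4 are the NRF2 targets whose promoters are printed above. Gsta3, a glutathione transferase, was the member that fell (1.18-fold, adjusted p = 0.00614). In glutathione metabolism 4 of 20 rose and 6 fell (median -0.06): Glrx, which reduces protein-glutathione disulfides, rose 1.85-fold and the peroxidase Gpx2 1.49-fold, while Gstz1, which is also an enzyme of tyrosine breakdown, fell 1.60-fold, Gpx4 1.16-fold and Mgst2 1.15-fold. The NADPH and pentose phosphate list rose in 5 of 9 and fell in 1 (median 0.11), with Pgd up 1.32-fold, malic enzyme Me1 1.22-fold and Taldo1 1.13-fold, and Nnt, the mitochondrial transhydrogenase, down 1.48-fold. With centring on the median of all probe sets, 1 of these 5 rises was called, that of Pgd, and a further Me1 probe set had a log2 fold change of 0.08 (adjusted p = 0.478).

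Conjugating enzymes moved in both directions. UGTs and sulfotransferases rose in 3 of 13 and fell in 5 (median -0.13). Beside Ugt2b1, Ugdh, which makes UDP-glucuronic acid, rose 1.35-fold from 26443 ± 1238 to 35607 ± 2254, and the sulfotransferases Sult1b1 and Sult1a1, which add sulfate to phenols, fell 2.29-fold and 1.90-fold. Sult1a1 signals were 71857, 77961, 70660, 78612 and 79868 in vehicle and 41094, 42216, 42643, 34909 and 38933 at 100 µM. Ugp2, which supplies UDP-glucose, fell 1.32-fold. CAR and PXR targets fell in 7 of 16 and rose in 1 (median -0.16): the riser was Cyp3a23-3a1, a steroid and drug hydroxylase, 1.67-fold from 39378 ± 1940 to 65906 ± 7359, and among those that fell were the retinal dehydrogenase Aldh1a1 (1.74-fold), the carboxylesterase Ces2c (1.35-fold) and Alas1, which starts heme synthesis (1.33-fold). Other P450s fell in 12 of 28 and rose in 3 (median -0.29), with the fatty acid hydroxylase Cyp4a1 down 2.68-fold, the ethanol-inducible Cyp2e1 2.00-fold and Cyp4f4 as above, against rises of Cyp2a1 and of Cyp2f4 (1.50-fold).

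Steroid, retinoid and thyroid genes fell in 13 of 20 and rose in 1, Hsd17b2 (median -0.48). Dhrs3, which reduces retinal, fell 2.40-fold from 2084 ± 246 to 869 ± 124, the retinol dehydrogenase Rdh16 1.86-fold, and the retinoic acid receptor gene Rarb, from the transcription factor list, 1.76-fold. Lrat, which esterifies retinol and is a stellate cell marker, had 99.2, 106, 46.1, 65.6 and 69.4 in vehicle and 23.3, 23.5, 14.5, 10.1 and 20.8 at 100 µM, at the bottom of the signal range. Its call (log2 fold change -2.08, SE 0.70, adjusted p = 0.0329) was lost without any 1 of vehicle replicates 1, 2 and 5 or treated replicates 3 and 4, with adjusted p between 0.0516 and 0.0856.

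Glucose and glycogen genes fell in 15 of 18 and rose in 1 (median -0.88). Beside Pfkfb1, Fbp1, the gluconeogenic fructose bisphosphatase, fell 2.56-fold from 14028 ± 1025 to 5478 ± 314, and Pklr, the liver pyruvate kinase of the opposite direction of the pathway, fell 2.52-fold from 1640 ± 147 to 650 ± 38.3 (a dimmer probe set had a log2 fold change of -4.83, adjusted p = 6.64e-08). The riser was Pck2, the mitochondrial form of PEP carboxykinase (1.34-fold, adjusted p = 7.46e-05). Fatty acid synthesis and lipid storage fell in 12 of 26 and rose in 1 (median -0.46). Acly, which makes cytosolic acetyl-CoA, went from 15747, 16877, 16642, 18454 and 17321 to 7144, 7243, 7142, 7129 and 7358 (2.36-fold lower, adjusted p = 5.02e-16), and the treated arrays lay within 230 signal units of each other. Srebf1, the lipogenic transcription factor, fell 2.35-fold and Mttp, which loads lipid onto lipoproteins, 2.24-fold, whereas the elongase Elovl6 rose 1.94-fold (a dimmer probe set had a log2 fold change of 0.92, adjusted p = 0.0638).

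Fatty acid oxidation and PPARA targets fell in 22 of 28 and rose in 0 (median -0.38). Angptl4, a lipoprotein lipase inhibitor, fell 2.61-fold from 10122 ± 615 to 3892 ± 522, the hormone gene Fgf21 1.82-fold and its regulator Creb3l3 1.71-fold. Cholesterol synthesis fell in 13 of 20 and rose in 0 (median -0.23): Dhcr7 fell 1.63-fold, Sqle 1.48-fold and Ebp 1.38-fold. Of 21 bile acid genes 11 fell and 1 rose (median -0.60). After Cyp8b1, the sodium-dependent bile acid importer Slc10a1 fell 2.83-fold from 2683 ± 235 to 956 ± 146 and the sterol 27-hydroxylase Cyp27a1 1.64-fold, while Baat, which couples bile acids to glycine and taurine, rose 1.49-fold from 7679 ± 795 to 11470 ± 1241.

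Amino acid catabolism fell in 28 of 38 and rose in 1 (median -0.53). Cdo1, which oxidises cysteine, had 38073, 32359, 36606, 32117 and 35106 in vehicle and 16086, 17148, 16063, 14770 and 15198 at 100 µM (2.20-fold lower, adjusted p = 5.78e-13). Upb1, which completes pyrimidine breakdown after Dpys, fell 2.85-fold from 2391 ± 303 to 841 ± 131, and Aass, of lysine breakdown, 3.11-fold from 3347 ± 437 to 1072 ± 112. The riser was Qdpr, which recycles tetrahydrobiopterin (1.18-fold, not called with centring on the median of all probe sets). Urea cycle and nitrogen genes fell in 13 of 17 and rose in 1 (median -0.46), with the ornithine carrier Slc25a15 down 2.23-fold, glutamate dehydrogenase Glud1 1.38-fold and the glutamine carrier Slc38a3 1.60-fold, and glutamine synthetase Glul up 1.39-fold from 8007 ± 618 to 11150 ± 628. Methionine, one-carbon and creatine genes fell in 13 of 23 and rose in 3 (median -0.41). Gamt, which makes creatine, fell 2.90-fold, the choline oxidase Chdh 1.98-fold and Mat1a, which makes S-adenosylmethionine, 1.69-fold. Psph, the last enzyme of serine synthesis, rose 1.48-fold from 3525 ± 229 to 5213 ± 189 and Mthfd2, of mitochondrial folate metabolism, 1.52-fold.

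Among secreted liver proteins, coagulation and complement genes fell in 22 of 28 and rose in 1 (median -0.34). Serpinf2, the plasmin inhibitor, had 3970, 4005, 3833, 5434 and 4671 in vehicle and 1755, 1579, 1755, 1626 and 1537 at 100 µM (2.64-fold lower, adjusted p = 3.93e-11). The complement gene C8a fell 1.90-fold and the lectin Mbl2 1.56-fold (another probe set of Mbl2 had a log2 fold change of -0.13, adjusted p = 0.152), and Pros1, an anticoagulant cofactor, rose 1.11-fold, a call lost with centring on the median of all probe sets. Acute phase proteins fell in 11 of 22 and rose in 0 (median -0.27), with Serpina3n down 1.94-fold, Itih4 1.55-fold and C3 1.44-fold. Plasma carriers and apolipoproteins fell in 9 of 24 and rose in 0 (median -0.15), 37.5% called beside 21.1% of all genes and 35.4% of genes above the median signal. Selenop, the selenium carrier, was down 1.50-fold from 40399 ± 1359 to 27025 ± 1105, Apoc2, the lipoprotein lipase cofactor, 1.70-fold and Apob 1.58-fold (a much dimmer Apob probe set had a log2 fold change of -0.13, adjusted p = 0.602).

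Liver-enriched transcription factors and nuclear receptors fell in 12 of 27 and rose in 0 (median -0.24). After Rarb, the bile acid receptor gene Nr1h4 fell 1.52-fold and Hnf4a 1.31-fold from 9647 ± 657 to 7374 ± 422, although 2 dimmer Hnf4a probe sets had log2 fold changes of 0.02 and -0.18 and were not called. Growth hormone, IGF and insulin genes fell in 7 of 25 and rose in 0 (median -0.06), 28% called beside 21.1% of all genes. Sesn1, a nutrient sensor, had 4139, 3655, 2948, 3967 and 2765 in vehicle and 1101, 879, 1145, 1290 and 1122 at 100 µM (3.14-fold lower, adjusted p = 1.95e-10), the growth hormone receptor gene Ghr fell 1.73-fold and Egfr 1.30-fold (a dimmer Egfr probe set had 0.06, adjusted p = 0.936). Clock genes rose in 2 of 18 and fell in 3 (median -0.15), 27.8% called beside 21.1% of all genes: Cry2 rose 1.46-fold (2.25-fold on a dimmer probe set, adjusted p = 0.00964) and Rora 1.44-fold (another Rora probe set had a log2 fold change of -0.05), and Usp2, a clock output gene, fell 2.08-fold, Bhlhe40 1.34-fold and Npas2 1.50-fold.

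ER stress and amino acid response genes rose in 17 of 34 and fell in 3 (median 0.19). Beside Gdf15 and Aspg, Sdf2l1, an ER chaperone cofactor, rose 1.59-fold from 3840 ± 593 to 6052 ± 560 and asparagine synthetase Asns 1.25-fold from 14554 ± 339 to 18279 ± 973. Herpud1, of ER-associated degradation, fell 1.21-fold and Fgf21, which the same response is known to raise, fell as given above. Proteasome and ubiquitin genes rose in 20 of 34 and fell in 0, each by little (median 0.15, at most 0.34). Psmd11, a regulatory lid subunit, had 17006, 17755, 18877, 18706 and 16884 in vehicle and 21858, 22483, 21958, 22109 and 24336 at 100 µM (1.26-fold, adjusted p = 1.94e-06), the core subunit Psma5 rose 1.23-fold and the catalytic subunit Psmb5 1.23-fold. The direction of Psmb5 rests on the brightest of its 3 probe sets, since the mean of the 3 gave -0.60 (adjusted p = 0.00764), and a dim probe set of Psmd11 had -0.19 (adjusted p = 0.831). With centring on the median of all probe sets the counts of rises were 3 of 34 for the proteasome and 9 of 34 for ER stress, so the small proteasome rises depend on the scaling.

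Heat shock chaperones rose in 5 of 17 and fell in 1 (median 0.10), 35.3% called beside 21.1% of all genes: Chordc1 rose 1.23-fold, the small heat shock protein Hspb8 1.21-fold and Ahsa1 1.15-fold, and the inducible Hspa1a fell 1.39-fold. The p53 target list rose in 4 of 15 and fell in 4 (median 0.07), with Plk2 up 1.38-fold, Mdm2 1.30-fold and Gadd45a 1.18-fold, and Cdkn1a, the p21 gene, down 1.46-fold beside Sesn1 (another Cdkn1a probe set had a log2 fold change of -0.05, adjusted p = 0.76). In the cell cycle list 2 of 25 rose and 0 fell (median 0.14), 8.0% called and below the 21.1% of all genes, the replication clamp gene Pcna by 1.08-fold and the helicase gene Mcm2 by 1.28-fold. Neither call held when single arrays were left out: Pcna lost its call without treated replicate 1, 3 or 5 or vehicle replicate 1 or 4 (adjusted p from 0.0513 to 0.0738), and Mcm2 without treated replicate 2, 4 or 5 or vehicle replicate 2, 4 or 5 (0.0712 to 0.103). Lysosome and autophagy genes rose in 2 of 24 and fell in 2 (median 0.01), 16.7% called and below the 21.1% of all genes, with the proton pump subunit Atp6v1h up 1.17-fold, the channel Mcoln1 1.19-fold, and Ulk1, which starts autophagy, down 1.36-fold (not called without vehicle replicate 4, adjusted p = 0.0608) and the protease Ctsd 1.22-fold (not called without treated replicate 1, 3, 4 or 5 or vehicle replicate 1, 2, 4 or 5, adjusted p from 0.0523 to 0.119, nor with the sets of array numbers as a block, 0.0552). With centring on the median of all probe sets the rises called were 2 of 17 for heat shock, 2 of 15 for p53 targets, 0 of 25 for cell cycle and 0 of 24 for lysosome genes.

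Inflammatory and interferon genes rose in 3 of 32 and fell in 7 (median -0.09), 31.2% called beside 21.1% of all genes. Isg15, an interferon-induced ubiquitin-like modifier, had 5074, 5683, 4594, 4605 and 5245 in vehicle and 2536, 2961, 4044, 2023 and 2008 at 100 µM (1.92-fold lower, adjusted p = 1.65e-05). Mx2, an interferon-induced GTPase, had 2103, 1667, 1617, 1114 and 1791 and 399, 726, 1068, 452 and 313 (3.04-fold lower), with treated replicate 3 highest in its group for both genes, and its dimmer probe set had a log2 fold change of 0.35 (adjusted p = 0.449). Stat2, a factor of interferon signalling, fell 1.47-fold (2.84-fold on a dimmer probe set, adjusted p = 7.74e-05), and Irf1 rose 1.41-fold beside Cxcl1. Matrix, TGF-beta and YAP genes fell in 6 of 30 and rose in 1 (median 0.04), 23.3% called and near the 21.1% of all genes. After Ccn2, Vim, the intermediate filament vimentin, had 5099, 6363, 3773, 7444 and 4911 in vehicle and 1819, 1949, 1411, 1465 and 1624 at 100 µM (3.27-fold lower, adjusted p = 1.68e-06), and Tgfbi fell 1.56-fold. Timp3, the member called higher (1.22-fold), had 3 further probe sets with log2 fold changes of 0.30, -0.09 and -0.18, none called, and was itself not called with centring on the median of all probe sets. Cytoskeleton genes rose in 6 of 31 and fell in 5 (median -0.04), 35.5% called beside 21.1% of all genes and 35.4% of genes above the median signal. The microtubule regulator Stmn1 was up 1.72-fold, Cnn3 1.24-fold and Pfn1 1.13-fold, and myosin Myh9 was down 1.21-fold and keratin Krt8 1.23-fold. The rises called were 2 of 31 with centring on the median of all probe sets.

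Oxidative phosphorylation and TCA cycle genes fell in 14 of 35 and rose in 1 (median -0.11). Those with the smallest adjusted p were enzymes of the TCA cycle and its entry: Pdhb fell 1.33-fold, Mdh1 1.48-fold and Suclg1 1.44-fold, and Sucla2 rose 1.09-fold (adjusted p = 0.0225). The Sucla2 call was lost without treated replicate 5 (adjusted p = 0.0509) or vehicle replicate 1 (0.112) and with centring on the median of all probe sets (0.601). Heme and iron genes rose in 2 of 20 and fell in 4 (median -0.08), 30.0% called beside 21.1% of all genes. Heme oxygenase Hmox1 rose 1.26-fold and biliverdin reductase Blvrb 1.22-fold, and beside Alas1 the hepcidin regulator Hjv fell 1.22-fold and the transferrin receptor gene Tfrc 1.17-fold (not called without vehicle replicate 5, adjusted p = 0.0559). Amino acid and other solute transporters rose in 4 of 30 and fell in 6 (median -0.07), 33.3% called beside 21.1% of all genes, with the neutral amino acid carrier Slc1a4 up 1.63-fold and Slc17a1 1.24-fold, and the mitochondrial carriers Slc25a10 and Slc25a25 down 1.89-fold and 2.27-fold and the zinc carrier Slc39a14 1.32-fold.

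Markers were set against the hepatocyte label. All 11 measured hepatocyte markers were above the median gene, and their summed signal ran from 482474 to 541398 in vehicle and from 416291 to 534887 at 100 µM. Of these 11, 5 fell, Apob, Asgr1, Tat, Cps1 and Hnf4a, by 1.58, 1.45, 1.41, 1.37 and 1.31-fold, and 0 rose. That is 45.5% called, beside 21.1% of all genes and 35.4% of genes above the median signal. A second, dimmer Cps1 probe set fell 2.80-fold (adjusted p = 2.47e-07). Kupffer cell markers were called in 1 of 12, the endotoxin receptor gene Cd14 (1.18-fold higher, adjusted p = 0.0143), with summed signals of 23575 to 27705 in vehicle and 26560 to 30263 at 100 µM, and the Cd14 call was lost without vehicle replicate 4 (adjusted p = 0.0752) and with centring on the median of all probe sets (0.187). Stellate cell markers fell in 2 of 17, Lrat and the collagen cross-linker Lox (2.49-fold, from 5233 ± 1209 to 2069 ± 333), with sums of 9568 to 13250 and 8343 to 10014. The shares called, 8.3% of Kupffer cell and 11.8% of stellate cell markers, were below the 21.1% of all genes. Endothelial markers (0 of 10 called; sums of 3048 to 3721 and 3170 to 5235), cholangiocyte markers (0 of 6; 10555 to 11938 and 10710 to 11528) and lymphocyte markers (0 of 10; 1068 to 1617 and 1195 to 1978) did not pass. The part of other cell types in the changes of Ccn2, Vim, Lox, Lrat, Klrb1a and the inflammatory genes was not tested.

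To ask where the response at 100 µM differed from that at 1 µM, the arrays of the 2 doses were compared directly. Between doses 1097 genes (7.72%) were called, 447 higher and 650 lower at 100 µM, and 612 with centring on the median of all probe sets. Against the same vehicle arrays 612 genes (4.3%) had been called at 1 µM. Cyp1a1 had 39415, 42694, 46765, 47544 and 44084 at 1 µM, below every 100 µM array, yet the difference of 0.42 log2 units did not pass the test (SE 0.20, adjusted p = 0.255). That SE pools the spread of all 6 groups, among them the scattered vehicle arrays (11832 ± 3140 at 24 h and 9525 ± 4287 at 48 h). The 2 groups compared had 44100 ± 3275 and 59383 ± 8936, so the missed call does not show equal levels. Nqo1 (0.17, adjusted p = 0.126), Cxcl1 (0.31, adjusted p = 0.111) and Aldh3a1 (1.04, SE 0.37, adjusted p = 0.0895) did not pass either.

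Among genes called in both comparisons with a brighter group above the median gene, those higher at 100 µM than at 1 µM were led by Cyp1b1, with 606, 631, 536, 956 and 623 at 1 µM, all but 1 array of which lay within the vehicle range (6.03-fold higher at 100 µM, adjusted p = 2.15e-12). Aspg followed (5.16-fold, adjusted p = 0.00166). Ugt2b1 had 11012, 8943, 7435, 7581 and 7094 at 1 µM, where its log2 fold change against vehicle was -0.32 (adjusted p = 0.102), and was 3.45-fold higher at 100 µM than at 1 µM. Tiparp had 4928, 4701, 4663, 4591 and 4265 at 1 µM and was 2.59-fold higher at 100 µM. Hsd17b2 already rose at 1 µM, to 2314, 2252, 2345, 2048 and 2104, and lay 2.12-fold higher at 100 µM.

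Under the same signal limit, genes lower at 100 µM than at 1 µM were led by Cyp8b1 (3.23-fold), Ccn2 (2.91-fold), Pfkfb1 (2.86-fold), Uroc1 (2.83-fold) and Hao1 (2.77-fold). Dimmer genes fell further between the doses, Lrat by 6.50-fold (adjusted p = 0.0126), Fer1l5 by 3.45-fold and Dpys by 3.40-fold (adjusted p = 0.0468). Cyp8b1 signals at 1 µM were 4062, 4299, 3529, 2740 and 3268, and the change from vehicle at that dose did not pass (adjusted p = 0.385). Ccn2 had 5984, 5073, 5709, 5519 and 6579 at 1 µM, between the other groups with no overlap on either side. Hao1 had 2014, 1638, 1911, 1873 and 1859 at 1 µM, also between the groups. By list, 100 µM was lower than 1 µM for 20 of 38 amino acid catabolism genes, 10 of 18 glucose and glycogen genes, 11 of 28 fatty acid oxidation genes and 10 of 28 coagulation and complement genes. Over all 14217 genes, 650 were lower and 447 higher at 100 µM than at 1 µM. NRF2 targets were called higher at 100 µM than at 1 µM in 14 of 23 and lower in 0. Against vehicle 1 of the 23, Akr1b8, was called higher at 1 µM (log2 fold change 0.60, adjusted p = 5.50e-06). Nqo1, which also answers to NRF2, was listed in the AhR battery and not among these 23. It too was called higher at 1 µM (log2 fold change 0.70, adjusted p = 4.39e-08). Slc7a11 had 5091, 5563, 5875, 6246 and 6012 at 1 µM, overlapping the vehicle arrays, and was 1.83-fold higher at 100 µM (adjusted p = 1.13e-10). Of the AhR battery 3 of 8 were called higher at 100 µM than at 1 µM, Cyp1b1, Tiparp and Cyp1a2 (1.41-fold, adjusted p = 0.00441).

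**Figure D4:**
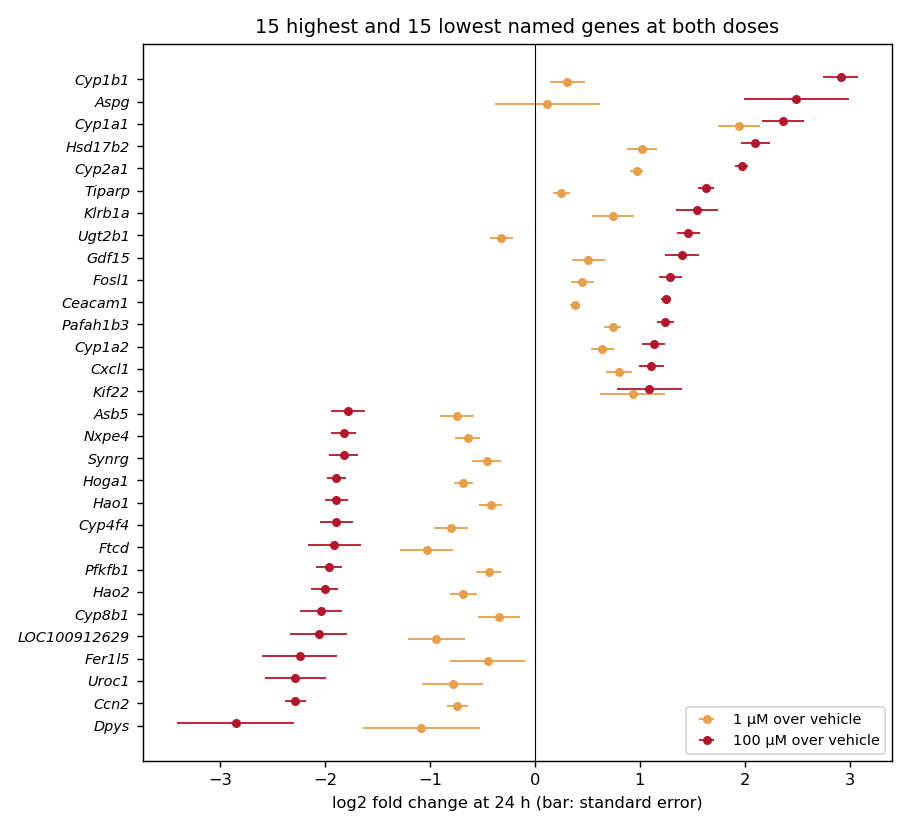
Log2 fold change over vehicle at 24 h (horizontal axis, bars are standard errors) of the 15 highest and 15 lowest genes at 1 µM (orange) and 100 µM BNF (red). Both doses use the same 5 vehicle arrays; Cyp1a1, Cxcl1 and Kif22 differ by 0.42 or less between doses, and Cyp1b1, Aspg, Tiparp and Ugt2b1 lie between -0.32 and 0.31 at 1 µM.

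Whether the effect at 24 h held at 48 h was asked with the arrays of the later time, which are separate from those at 24 h. At 48 h 2475 genes (17.4%) were called between 100 µM and vehicle. Of the 3000 genes called at 24 h, 1607 were called in the same direction at 48 h, 53.6% of the 24 h calls and 64.9% of the 48 h calls, 738 of them higher and 869 lower, and 13 were called in opposite directions. Over the 3000 genes, 91.5% had the same sign at 48 h and the 2 sets of log2 fold changes correlated at r = 0.78 across genes, which are not independent (r = 0.41 over all genes). The difference between the effects was itself called for 112 genes, 0.788% of those tested, 54 higher and 58 lower at 48 h (29 higher and 18 lower with centring on the median of all probe sets), and 88 of these were called at 24 h, 49 with a smaller effect at 48 h.

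Among genes called at 24 h with a brighter group above the median gene, the effects that became lower with time were led by Crp, the C-reactive protein gene, whose signal went from 7886 ± 1485 in vehicle to 5851 ± 814 at 100 µM at 24 h and from 12212 ± 1132 to 2322 ± 509 at 48 h (difference of effects -1.99 log2 units, adjusted p = 1.05e-08). The 24 h call of Crp was lost without vehicle replicate 5 (adjusted p = 0.0575). The fatty acid importer gene Cd36 fell 1.59-fold at 24 h and 4.77-fold at 48 h (difference -1.59, adjusted p = 2.11e-06), and Ugt2b, a glucuronosyltransferase, 1.44-fold and 3.96-fold (difference -1.46, adjusted p = 4.33e-10). For Cd36 the mean signal from 24 h to 48 h went from 1029 to 3165 in vehicle and from 646 to 664 at 100 µM. Rdh7, a retinol dehydrogenase, fell 1.71-fold and 3.68-fold. Cd9, a tetraspanin, changed direction: it went from 7970 ± 828 to 11602 ± 744 at 24 h and from 6302 ± 1737 to 4339 ± 159 at 48 h (difference -1.04, adjusted p = 2.10e-04), called at both times.

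Under the same signal limit, the effects that became higher with time were led by Akr1b8, with a rise of 1.76-fold at the earlier time and 3.29-fold at the later (difference 0.91, adjusted p = 3.79e-06). Cyp1a2 rose 2.19-fold and 3.45-fold (difference 0.66, adjusted p = 0.0423). Its mean signal was lower at 48 h in both groups, going from 11930 to 3374 in vehicle and from 26083 to 11590 at 100 µM. In 3 others a fall at 24 h was not seen at 48 h: Cited2, a transcriptional coregulator, had log2 fold changes of -0.92 and -0.06 (difference 0.86, adjusted p = 0.0117), Fam149a -0.70 and 0.06, and Aldh4a1, of proline breakdown, -0.72 and 0.02 (difference 0.74, adjusted p = 0.00305). From 24 h to 48 h the vehicle mean went from 11472 to 7585 for Cited2, 896 to 555 for Fam149a and 2269 to 1226 for Aldh4a1. At 100 µM the means went from 6013 to 7151 for Cited2, 554 to 584 for Fam149a and 1374 to 1237 for Aldh4a1. Another, dimmer probe set of Fam149a had a log2 fold change of -0.10 at 24 h (adjusted p = 0.858).

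Of the AhR battery, Cyp1b1 and Cyp1a2 had a called difference between the times, in opposite directions. The Cyp1b1 rise was 7.50-fold at the earlier and 3.82-fold at the later time (difference -0.97, adjusted p = 0.0387). For Cyp1a1 (difference 0.15, adjusted p = 0.9), Nqo1 (-0.10, adjusted p = 0.759) and Tiparp (-0.35, adjusted p = 0.144) the difference did not pass the test.

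**Figure D5:**
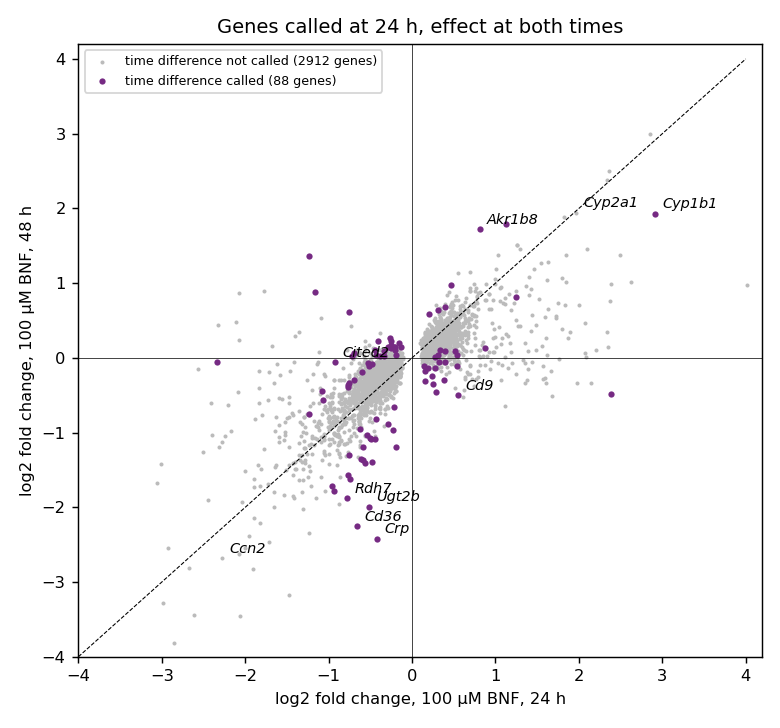
Log2 fold change of 100 µM BNF over vehicle at 48 h (vertical axis) against that at 24 h (horizontal axis) for the 3000 genes called at 24 h, with the 88 whose difference between times was called in purple and equality as a dashed line. Most points keep their sign, while Crp, Cd36, Ugt2b and Rdh7 lie far below the line and Cd9 crosses from a rise to a fall.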

How the data were processed

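Gene expression was measured on 30 Affymetrix arrays, 1 per well, 5 in each of 6 groups set by dose and time in the labels. The authors deposited a linear signal intensity per probe set, computed with MAS5 per the submitters' processing notes (version not given in the sources used here), which scales each array to a common level, so a shift shared by all genes cannot be seen. Of 31099 probe sets, 57 controls, 436 with several gene symbols and 9780 with none were left out. Symbols came from GEO's platform annotation and were updated by gene ID to GRCr8 (20758 of 20826 probe sets matched). For each of the 14217 genes the brightest probe set, by mean log2 signal over 30 arrays, was used, and 4525 genes had more than 1.

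The deposited intensities were turned into log2 values with no constant added, and limma 3.58.1 in R 4.3.3 fitted 1 mean per group over all 30 arrays, with eBayes and a mean-variance trend. Benjamini-Hochberg adjustment ran over all genes at 0.05, and adjusted p-values are from this fit with 2 exceptions. Those of a gene's other probe sets came from the same model fitted and adjusted over all 20826 probe sets with 1 gene symbol. Those given under an alternative came from that alternative's fit. Tested on simulated data for 14217 genes in the main comparison, the fit recovered 48.4%, 71% and 87.2% of genes changed by 0.5, 1 and 2 log2 units, with 4.9% false calls. Each simulated round changed 200 genes under independent normal noise, fewer than the 3000 called in the data. These rates therefore need not hold for the data.

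The members, the 40 gene lists (34 pathways and 6 sets of cell type markers) and the rule for named genes were chosen with earlier results of these data known. The rule named all AhR battery members, the 15 highest and 15 lowest called genes whose groups did not overlap and whose brighter group was above the median gene, up to 3 called genes per list by smallest adjusted p in its main direction and up to 2 in the other, 5 in each direction for the dose and time comparisons, and called markers. Promoters were printed, where the RefSeq promoter set held an entry, for the AhR battery members that rose and the 4 risen NRF2 targets with the smallest adjusted p. Cyp1a1 and Aldh3a1 had no entry. Alternatives changed the arrays fitted, the scaling, the low-signal filter, the constant before log2 (50), the variance model, the adjustment, the probe set rule and the array number as a covariate or, in sets, as a block, and left out each array in turn. With 5 arrays per group, the number of wells limits the precision.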

Additional observations from a re-analysis of the deposited data

Results flagged for a closer look

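For 14 of 338 groups of 5 arrays checked, a signal lay apart from the other 4 by Dixon's criterion, 4.1% where chance gives about 1 in 20. In vehicle these were Ahrr in replicate 2 (304, next 64), Hmox1 in replicate 2 (23511, next 21128), Mgst2 in replicate 3 (30574, the lowest) and Suclg1 in replicate 1 (14240, the lowest). At 100 µM the high values were Atp6v1h in replicate 3 (14727), C8a in replicate 1 (2836), Cyp3a23-3a1 in replicate 2 (78801, next 64408), LOC100912629 in replicate 1 (882) and Psmd11 in replicate 5 (24336). The low values at 100 µM were Gdf15 in replicate 2 (3169, next 4211), Glud1 in replicate 2 (18282), Hnf4a in replicate 4 (6646), Rora in replicate 2 (1697) and Stat2 in replicate 4 (2372).

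For 25 named genes the effect of 100 µM at 48 h differed from that at 24 h (limma, adjusted over all genes), and the difference is given as 48 h minus 24 h in log2 units. Among xenobiotic and redox genes it was -0.97 for Cyp1b1, 0.66 for Cyp1a2, 0.91 for Akr1b8, 0.28 for Pgd, -1.46 for Ugt2b, -0.86 for Sult1a1 and -1.10 for Rdh7. Genes of secreted liver proteins fell further at 48 h than at 24 h, with differences of -1.99 for Crp, -0.76 for Serpina3n, -0.54 for Apoc2 and -0.32 for Itih4. In lipid, nitrogen and energy metabolism it was -1.59 for Cd36, 0.49 for Acly, 0.41 for Creb3l3, 0.42 for Mat1a, -0.62 for Cps1, 0.74 for Aldh4a1 and 0.46 for Suclg1. The remaining genes were Cd9 at -1.04, Ceacam1 at -0.43, Cd14 at -0.47, Timp3 at -0.43, Cited2 at 0.86, Fam149a at 0.76 and the transporter Slc17a1 at 0.33.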

How the results depend on the processing

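Of 169 named genes, 123 kept their call and direction under every alternative run for them and 46 did not, with 21 alternatives run for 150 genes and 20 for the 19 genes below the median signal, which one filter removes. The count of 3000 genes was 2512 with only the 2 groups in the fit and 3143 after quantile normalization. With Bonferroni adjustment the counts were 768 for 100 µM against vehicle, 200 for 100 µM against 1 µM and 26 for the difference between times. With centring on the median of all probe sets, chosen after seeing the data, they were 2135 (30.4% higher, beside 50.8%), 612 and 47 (61.7% higher, beside 48.2%). Without genes below the median signal, 174 genes differed between times, over fewer genes tested. Leaving out each array in turn gave 2626 to 2931, 781 to 1112 and 89 to 154 genes. Psmb5 reversed to -0.60 with the mean of all probe sets of a gene, a mean that includes its probe set at -1.66. The labels give no replicate numbers, but array numbers in the titles run in 5 sets with 1 array of each group. Over all genes, deviations of the vehicle and 100 µM arrays of a set were hardly correlated (r from -0.02 to 0.05, 1 of 5 highest with its own set). Dim and noisy genes counted as much as bright ones, so this check could miss an effect shared within a set. With these sets as a replicate block, added after seeing the data, 3050, 1121 and 130 genes were called, and 1 of the 169 named genes, Ctsd, lost its call. Dim genes limit the comparison, with the SE given in the text.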

Other observations

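The genes of this paragraph were chosen after their values were seen. Otc, the mitochondrial urea cycle enzyme, fell from a mean signal of 418 in vehicle to 72.3 at 100 µM at 24 h (log2 fold change -2.67, adjusted p = 6.58e-05, limma), and by -2.81 at 48 h (adjusted p = 3.93e-05). Its signal was below the median gene in both groups. Bdh1, which makes and uses ketone bodies in mitochondria, fell from 595 to 124 (log2 fold change -2.34, adjusted p = 3.17e-05), whereas at 48 h its log2 fold change was -0.06 (adjusted p = 0.952). The difference between the times was 2.28 (adjusted p = 0.0387). Beside Hao1 and Hoga1, Agxt, which turns glyoxylate into glycine, fell from 5047 to 3124 (log2 fold change -0.69, adjusted p = 1.57e-07), and Prodh2, which opens hydroxyproline breakdown, from 2427 to 1943 (log2 fold change -0.33, adjusted p = 0.0313).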
